A study of Mus musculus with 9 samples.

Results

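The genes described here are the nuclear-encoded subunits of respiratory complexes II to V with the assembly factors that share their symbols. They were taken by name: protein-coding mouse genes whose symbol begins with Sdh, Uqcr, Atp5 or Cox followed by a digit, together with Cyc1 and Uqcc1 to Uqcc3. This gave 65 of the 54532 genes listed, of which 21995 are protein-coding: 8 for complex II, 12 for complex III, 27 for complex IV and 18 for complex V. They carry 64 symbols, since Atp5o stands under 2 gene IDs. A further 9 genes whose symbols match the pattern are not annotated as protein-coding and were left out. RNA-seq was done on mouse liver in 9 libraries, 3 in each of 3 groups. The groups were Cth knockout mice given 1% betaine through their water, Cth knockout mice on plain water, and wild-type (WT) mice on plain water. Both knockout groups thus lack Cth, which encodes cystathionine gamma-lyase, the enzyme that makes cysteine from cystathionine. Strain, age, sex, the duration of betaine and the design of the knockout allele are not given in the sources used here. The replicates are not stated to be separate animals, so the p-values below measure only the spread between these libraries.

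Complexes II to IV pass electrons along the inner mitochondrial membrane. Complex II (succinate dehydrogenase) moves them from succinate to ubiquinone, complex III from ubiquinol to cytochrome c, and complex IV (cytochrome c oxidase) from cytochrome c to oxygen. Complexes III and IV pump protons, and complex V (ATP synthase) lets them flow back to make ATP. Complex II is built from nuclear genes alone, whereas complexes III to V each combine nuclear with mitochondrially encoded subunits. The liver is rich in mitochondria, and several complex IV subunits have a form made in liver and another made mainly in muscle, heart, testis or lung.

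The promoters of 6 genes are shown because they contrast, within complexes II, IV and V, the gene with the smallest p in the comparison of knockout with WT livers and the gene with the lowest fold change. Each line gives the 150 bases upstream of the RefSeq transcription start (GRCm38.p6), read 5′ to 3′ on the gene's strand, with matches to the searched motifs in capitals.
Sdhaf4, chr1:24005641-24005790, minus strand: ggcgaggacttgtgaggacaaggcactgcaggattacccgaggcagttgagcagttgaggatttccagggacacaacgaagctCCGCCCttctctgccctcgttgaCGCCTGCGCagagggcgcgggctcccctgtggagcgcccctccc
Sdha, chr13:74350241-74350390, minus strand: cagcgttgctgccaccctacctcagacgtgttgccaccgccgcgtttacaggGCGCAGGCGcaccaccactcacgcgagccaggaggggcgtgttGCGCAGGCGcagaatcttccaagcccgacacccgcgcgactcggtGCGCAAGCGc
Cox7b, chrX:106015550-106015699, plus strand: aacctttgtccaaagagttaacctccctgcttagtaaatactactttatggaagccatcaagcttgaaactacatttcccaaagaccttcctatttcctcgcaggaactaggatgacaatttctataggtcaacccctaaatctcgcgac
Cox15, chr19:43753001-43753150, minus strand: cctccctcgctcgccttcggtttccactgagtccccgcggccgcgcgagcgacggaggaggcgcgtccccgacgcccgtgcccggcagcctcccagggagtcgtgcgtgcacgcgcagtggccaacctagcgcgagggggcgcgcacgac
Atp5g1, chr11:96075632-96075781, minus strand: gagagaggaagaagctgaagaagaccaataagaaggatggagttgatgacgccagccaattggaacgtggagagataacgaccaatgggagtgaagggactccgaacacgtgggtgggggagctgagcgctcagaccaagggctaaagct
Atp5b, chr10:128083157-128083306, plus strand: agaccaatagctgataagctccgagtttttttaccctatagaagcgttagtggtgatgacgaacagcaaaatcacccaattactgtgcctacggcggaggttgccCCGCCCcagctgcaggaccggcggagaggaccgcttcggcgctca

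The motifs searched, on both strands, were GCGCANGCG (NRF1), CCGGAAGT (ETS factors such as GABP), AAGATGGCG (YY1) and GGGCGG (SP1), and matches of different motifs were allowed to overlap. NRF1 and GABP are textbook regulators of nuclear respiratory genes. Sdha, which did not pass the test, held 3 NRF1 matches, at positions -98, -55 and -10 from the start. Sdhaf4, which rose in knockout livers, held an SP1 match at -67 and an NRF1 match at -44, and Atp5b, which did not pass, held an SP1 match at -45. Cox7b and Atp5g1, which rose in knockout livers, held no match to any of the 4 motifs in the window from 250 bases before to 50 bases after the start. Outside the stretches shown, the same window held an NRF1 match at 10 in Sdhaf4, an ETS match at 8 and an SP1 match at -249 in Cox15, and an SP1 match at -199 in Atp5b. Of the 64 symbols 48 were in the promoter table, and 44 tested members had a full window of 300 bases. NRF1 matches stood in 34.1% of these 44 windows and in 7.03% of those of 27025 genes. ETS matches stood in 18.2% and 4.31%, YY1 matches in 6.82% and 1.64%, and SP1 matches in 47.7% and 38.2%. Among the 32 windows of members that passed the test in the knockout, 37.5% held NRF1 and 18.8% held ETS, and among the 12 that did not pass these shares were 25.0% and 16.7%. SP1 matches stood in 37.5% of the windows of the 32 and in 75.0% of those of the 12. These are matches of letters and were not tested as binding sites.

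The deposited values are FPKM, reads per length of transcript and per library size. From the steps between low values, totals of 15184888 to 17473977 reads per library were recovered, and 3 reads in a gene of 1 kb correspond to 0.162 to 0.222 FPKM. Cth itself had 0.319, 0.309 and 0.781 FPKM in knockout livers with betaine and 0.583, 0.278 and 0.77 FPKM in knockout livers, against 285, 257 and 219 FPKM in WT livers, so every library had the Cth level its label calls for. WT replicate 3 stood apart. Its Xist level, which marks an inactive X chromosome, was 26.6 FPKM against at most 0.0124 FPKM in the other 8 libraries, and its Y-linked Ddx3y was at 0 against 8.3 to 12.9 FPKM. By Xist and Ddx3y this library reads as female and the other 8 as male, though the labels give no sex. The WT group is thus mixed by these genes while both knockout groups are not. The part of sex in the comparisons with WT was not tested. Results are therefore also given without WT replicate 3. Hepatocyte markers were abundant everywhere: their 10 genes summed to 42233 to 63723 FPKM in knockout livers with betaine, 57632 to 71302 FPKM in knockout livers and 58673 to 74902 FPKM in WT livers. Of these 10 genes 3 were called higher and 2 lower in knockout than in WT livers, beside 12.8% and 12.7% of all tested genes. With the length trend described below removed, 0 were higher and 2 lower, beside 8.99% and 9.54%. No tested marker of cholangiocytes, macrophages, stellate cells, lymphocytes and neutrophils or red cells passed between knockout and WT livers. The level allowed a test for only 4 of 7 cholangiocyte, 3 of 8 lymphocyte and neutrophil and 4 of 5 red cell markers. Of 7 sinusoidal endothelial markers 1 was lower in knockout livers. The 8 macrophage markers summed to 63.4 to 170 FPKM in knockout livers with betaine and 83.9 to 101 FPKM in knockout livers, against 131 to 163 FPKM in WT livers, with a median log2 difference between knockout and WT of -0.55. The endothelial markers summed to 22.9 to 36.9 FPKM in knockout livers with betaine and 28.4 to 37.9 FPKM in knockout livers, against 37.9 to 67.6 FPKM in WT livers, with a median of -0.56. The part of these cells in the results was not tested. Of 5 pancreas markers Cpa1 and Pnlip were at 0, and Cela1 rose by 1.03 log2 in knockout livers (adjusted p = 0.00632). Of 6 skeletal muscle markers, Myl1 was at 0 in all libraries and the list summed to at most 1.18 FPKM.

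A gene was tested where its mean over the 9 libraries was at least 0.5 FPKM, and a call is an adjusted p under 0.05 in limma, adjusted over all 11852 genes tested. The test could be run on 56 of the 65 members: all 8 of complex II, all 12 of complex III, 19 of complex IV and 17 of complex V. The 9 below the filter were Cox17, Cox20, Cox4i2, Cox6a2, Cox6b2, Cox7b2, Cox8b, Cox8c and the other Atp5o gene ID. Log2 fold changes are on the scale of log2(FPKM + 0.5), which understates the change of the lowest genes.

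In knockout livers 41 of the 56 tested members rose above WT and none fell. That is 73.2% of them, beside 25.6% of all tested genes called in either direction, 12.8% called higher and 12.7% called lower. At an unadjusted p under 0.05 the members numbered 43 higher and 1 lower, beside 2383 higher and 2359 lower of the 11852 genes tested. The median log2 difference was 0.77 over the members and 0.02 over all tested genes. The lowest was -0.40 for Sdha, the flavin-binding catalytic subunit of complex II, and the highest 1.50 for Cox5b, a zinc-binding subunit of complex IV. In 43 members all 3 knockout libraries stood above all 3 WT libraries, which held for 23.6% of all tested genes, and in 1, Cox15, all stood below, which held for 23.2%. As these are whole-liver libraries, more RNA per cell and more cells that make the RNA cannot be told apart.

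**Figure D1:**
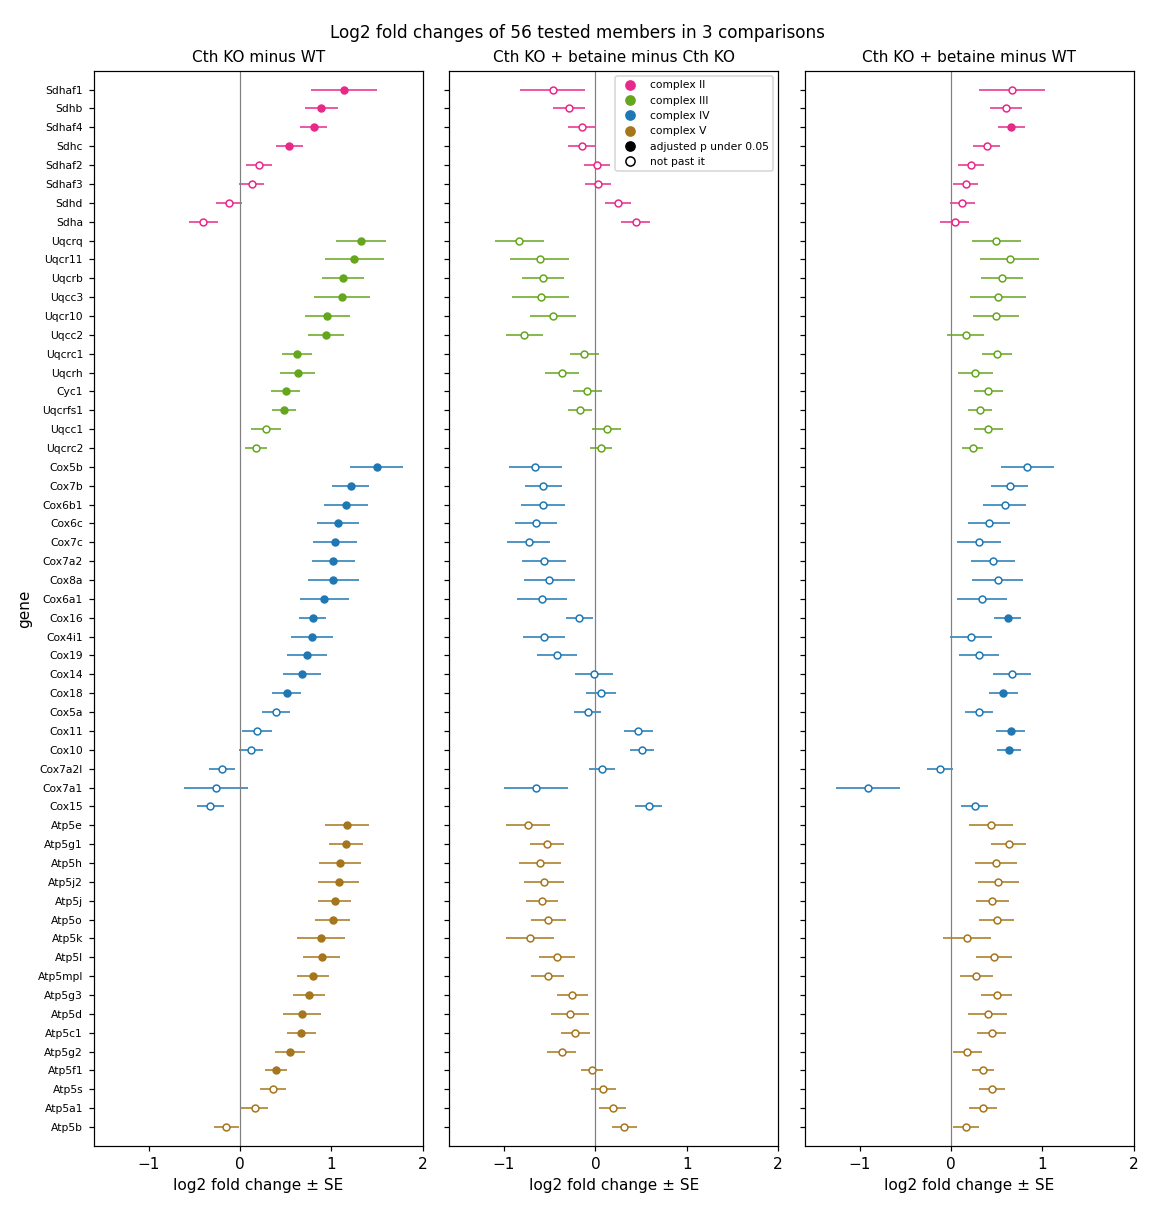
Log2 fold change with its standard error (x axis) for each of the 56 tested members (y axis, by complex and size), in knockout minus WT (left), knockout with betaine minus knockout (middle) and knockout with betaine minus WT (right). Filled points passed an adjusted p of 0.05: 41 on the left, 0 in the middle and 5 on the right.

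By complex, calls numbered 10 of 12 for complex III, 13 of 19 for complex IV, 14 of 17 for complex V and 4 of 8 for complex II. The median log2 differences were 0.79, 0.79, 0.80 and 0.37 in the same order. Scaling each library to a fixed sum of FPKM (TPM) lowered the median of all tested genes to -0.36 and that of the members to 0.36, so that the members stood 0.72 above all genes, against 0.76 with the deposited scale. On the TPM scale 24 members were called higher and 5 lower (Sdha, Sdhd, Cox15, Cox7a2l and Atp5b), beside 4.96% and 31.0% of all genes. With quantile normalization 28 were called higher and 4 lower (Sdha, Sdhd, Cox7a2l and Atp5b), beside 12.1% and 13.7%. Of the 41 called members 40 stayed above 0 on the TPM scale, the exception being Atp5f1 at -0.02. The median of complex II turned to -0.03 on that scale.

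In complex II the catalytic pair and the membrane anchors each divided. Sdhb, the iron-sulfur subunit (chr4:140961203-140979193), had 129, 88.4 and 93.1 FPKM in knockout livers with betaine and 122, 142 and 112 FPKM in knockout livers, against 77.7, 65.8 and 59.2 FPKM in WT livers. All knockout libraries were above all WT libraries, and Sdhb rose by 0.89 ± 0.18 log2 (SE; limma adjusted p = 0.0106). Sdha, the flavoprotein that pairs with it (chr13:74322254-74350280), had 102, 123 and 116 FPKM in knockout livers with betaine and 96.6, 74.1 and 81.1 FPKM in knockout livers, against 125, 118 and 90.9 FPKM in WT livers. Knockout and WT ranges overlapped through WT replicate 3, and the log2 difference of -0.40 ± 0.16 did not pass (adjusted p = 0.0999). Without WT replicate 3 it was -0.54 and passed (adjusted p = 0.035).

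Of the membrane anchors, which hold heme and the ubiquinone site, Sdhc rose and Sdhd did not pass. Sdhc had 66.1, 48.5 and 54.1 FPKM in knockout livers with betaine and 65.1, 62 and 58.9 FPKM in knockout livers, against 47.4, 43.2 and 37.2 FPKM in WT livers. The knockout and WT groups were separate, with a log2 difference of 0.54 ± 0.15 (adjusted p = 0.0284, or 0.0606 without WT replicate 3). Sdhd ranged from 157 to 164 FPKM in knockout livers with betaine, from 128 to 147 FPKM in knockout livers and from 126 to 163 FPKM in WT livers, and its log2 difference between knockout and WT was -0.12 (adjusted p = 0.526).

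Assembly factors of complex II rose in 2 of 4 cases. Sdhaf4, a chaperone that hands Sdha on to Sdhb (chr1:23995939-24005656), had 16.4, 13.9 and 20.4 FPKM in knockout livers with betaine and 18.1, 17.5 and 20.1 FPKM in knockout livers, against 10.8, 9.95 and 10.4 FPKM in WT livers. Its knockout values were all above WT, including WT replicate 3, with a log2 difference of 0.81 ± 0.15 (adjusted p = 0.00792). Sdhaf1, which helps insert iron-sulfur clusters into Sdhb, had 2.91, 0.78 and 1.82 FPKM in knockout livers with betaine and 2.59, 2.66 and 2.27 FPKM in knockout livers, against 1.12, 1.23 and 0.4 FPKM in WT livers. The knockout and WT libraries did not overlap and the log2 difference was 1.14 ± 0.36 (adjusted p = 0.0440), but it rests on 18 to 122 reads per library, 69.6% of the exon bases lie under another gene (E130208F15Rik), and without WT replicate 3 the adjusted p was 0.106. Sdhaf2, the factor for flavin attachment to Sdha, and Sdhaf3 had log2 differences of 0.21 and 0.13, neither past the threshold (adjusted p = 0.277 and 0.510).

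In complex III all 5 small subunits without redox centers rose, with a median log2 difference of 1.13. Uqcrq, a small subunit (chr11:53427922-53430831), had 272, 151 and 199 FPKM in knockout livers with betaine and 356, 428 and 304 FPKM in knockout livers, against 162, 179 and 101 FPKM in WT livers. Each knockout library exceeded each WT library, by 1.33 ± 0.27 log2 on average (adjusted p = 0.0108). Uqcrb, a subunit near the ubiquinone-binding site (chr13:66900617-66905378), had 178, 93.9 and 133 FPKM in knockout livers with betaine and 209, 221 and 161 FPKM in knockout livers, against 82, 99.9 and 85.1 FPKM in WT livers. Here WT replicate 3 was within the range of the other WT libraries, and the log2 difference was 1.13 ± 0.23 (adjusted p = 0.0105), or 1.10 without that library.

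Uqcr11, another small subunit, had 284, 184 and 225 FPKM in knockout livers with betaine and 400, 364 and 289 FPKM in knockout livers, against 173, 210 and 85 FPKM in WT livers. WT replicate 3 was far below the other WT libraries, and the log2 difference was 1.25 ± 0.32 (adjusted p = 0.0213) with it and 0.87 (adjusted p = 0.0247) without it. Uqcr10 and Uqcrh, the hinge protein that helps cytochrome c1 meet cytochrome c, rose by 0.96 and 0.63 log2. Uqcrh did not pass without WT replicate 3 (adjusted p = 0.0901).

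The redox carriers of complex III also rose. Cyc1, cytochrome c1, ranged from 124 to 135 FPKM in knockout livers and from 73.6 to 105 FPKM in WT livers, with a log2 difference of 0.50 (adjusted p = 0.0424). Uqcrfs1, the Rieske iron-sulfur protein, ranged from 220 to 235 FPKM in knockout livers and from 139 to 177 FPKM in WT livers, with a log2 difference of 0.48 (adjusted p = 0.0294). Neither passed without WT replicate 3 (adjusted p = 0.0783 and 0.0559). Of the core proteins, relatives of mitochondrial processing peptidases, Uqcrc1 rose by 0.63 ± 0.16 log2 (adjusted p = 0.0231). Uqcrc2 (chr7:120635176-120659524) had 77.7, 75.9 and 78.3 FPKM in knockout livers with betaine and 74.9, 68.5 and 79.8 FPKM in knockout livers, against 70.4, 66.1 and 60.6 FPKM in WT livers. Knockout and WT overlapped, the log2 difference of 0.18 ± 0.12 did not pass (adjusted p = 0.281), and its sign turned on the TPM scale (-0.24).

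Among the factors that assemble complex III around cytochrome b, Uqcc2 and Uqcc3 rose and Uqcc1 did not pass. Uqcc2 had 20.5, 16.1 and 21 FPKM in knockout livers with betaine and 32.1, 40.1 and 28.2 FPKM in knockout livers, against 19.9, 19.1 and 13 FPKM in WT livers. The knockout libraries stood above all 6 others, with a log2 difference to WT of 0.94 ± 0.20 (adjusted p = 0.0120). Uqcc3 rose by 1.12 ± 0.31 log2 (adjusted p = 0.0294; 0.0561 without WT replicate 3), and Uqcc1 had a log2 difference of 0.29 (adjusted p = 0.205).

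In complex IV 9 of the 10 subunits of the liver forms rose, with a median log2 difference of 1.03 over the 10. Cox5b (chr1:36691449-36693681) had 111, 70 and 85.9 FPKM in knockout livers with betaine and 132, 170 and 118 FPKM in knockout livers, against 54, 67.8 and 31.4 FPKM in WT livers. The groups did not overlap, and the log2 difference of knockout to WT was 1.50 ± 0.29 (adjusted p = 0.00911), or 1.19 without WT replicate 3 (adjusted p = 0.0122). Cox7b, a membrane-spanning subunit encoded on the X chromosome (chrX:106015700-106022450), had 178, 108 and 135 FPKM in knockout livers with betaine and 208, 221 and 185 FPKM in knockout livers, against 97.7, 95.8 and 72.5 FPKM in WT livers. All knockout values were at or above 185 FPKM and all WT values below 100 FPKM, a log2 difference of 1.21 ± 0.20 (adjusted p = 0.00669).

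Cox6b1, which faces the intermembrane space near the cytochrome c site, had 350, 200 and 242 FPKM in knockout livers with betaine and 361, 440 and 352 FPKM in knockout livers, against 199, 194 and 128 FPKM in WT livers. It too was separate between knockout and WT, by 1.16 ± 0.24 log2 (adjusted p = 0.0112). The other risers were Cox6c, Cox7c, Cox7a2, Cox8a, Cox6a1 and Cox4i1, at 0.79 to 1.07 log2. Cox6a1 and Cox4i1 did not pass without WT replicate 3 (adjusted p = 0.0632 and 0.0659). Cox5a, the partner that Cox4i1 meets early in assembly, had a log2 difference of 0.39 (adjusted p = 0.0877).

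The forms of complex IV subunits made mainly in other tissues were near the floor. Cox4i2, the lung form, ranged from 0.274 to 0.452 FPKM in knockout livers with betaine, from 0.17 to 0.358 FPKM in knockout livers and from 0 to 0.166 FPKM in WT livers, beside 166 to 438 FPKM for Cox4i1 over all 9 libraries. The muscle forms Cox6a2 and Cox8b reached at most 0.296 and 1.17 FPKM, both in a knockout library, beside lows of 281 FPKM for Cox6a1 and 199 FPKM for Cox8a. The testis forms Cox7b2 and Cox8c were at 0 in all 9 libraries, and Cox6b2 reached 0.499 FPKM in WT replicate 3. Cox7a1, the muscle and heart counterpart of Cox7a2, was the only one of these forms with enough signal for a test. It had 0.777, 0.807 and 0.465 FPKM in knockout livers with betaine and 1.66, 2.37 and 0.502 FPKM in knockout livers, against 1.42, 1.59 and 2.17 FPKM in WT livers. The WT range lay within that of the knockout (log2 difference -0.26 ± 0.35, adjusted p = 0.596). Knockout replicate 3, which had the least Cox7a1 of its group, had 1.19 FPKM of Ucp1, 0.865 FPKM of Cidea and 0.535 FPKM of Adipoq among 5 brown fat markers. Dio2 was at 0 there, and Elovl3, at 773 FPKM, was within the range of the other knockout libraries (630 and 780 FPKM). A part of other tissue in these low values was not tested.

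Cox7a2l, a relative of Cox7a2 that links complexes III and IV into supercomplexes, did not follow the subunits. It had 70.6, 70.5 and 75.2 FPKM in knockout livers with betaine and 75.5, 67.3 and 63.1 FPKM in knockout livers, against 85.2, 85.1 and 66.4 FPKM in WT livers. The ranges overlapped through WT replicate 3 and the log2 difference was -0.19 ± 0.14 (adjusted p = 0.320).

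Of the 7 tested assembly factors of complex IV, 4 rose: Cox16, Cox19, Cox14 and Cox18. Cox16, which acts in the maturation of the mitochondrially encoded subunit 2, had 4.05, 3.06 and 3.45 FPKM in knockout livers with betaine and 4.38, 4.23 and 3.51 FPKM in knockout livers, against 2.17, 2.46 and 1.74 FPKM in WT livers. Knockout and WT did not overlap (0.80 ± 0.15 log2, adjusted p = 0.00945), though 56.8% of its exon bases lie under another gene model (Gm20498). Cox19, a copper-handling factor, Cox14, which works on subunit 1, and Cox18, which inserts subunit 2 into the membrane, rose by 0.73, 0.68 and 0.51 log2. None of these 3 passed without WT replicate 3 (adjusted p = 0.0670, 0.0807 and 0.0979).

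The other 3 tested assembly factors of complex IV, Cox15, Cox10 and Cox11, did not pass between knockout and WT. Cox15, which makes heme A (chr19:43733254-43753000), had 5.78, 7.88 and 8.01 FPKM in knockout livers with betaine and 4.58, 4.42 and 4.81 FPKM in knockout livers, against 6.75, 5.14 and 5.87 FPKM in WT livers. The knockout libraries were the lowest 3 of the 9, yet the log2 difference to WT of -0.32 ± 0.15 missed the threshold (adjusted p = 0.142). Cox10, which makes heme O, the precursor of heme A (chr11:63962627-64079468), had 4.4, 4.83 and 4.8 FPKM in knockout livers with betaine and 3.27, 3.16 and 2.96 FPKM in knockout livers, against 3.14, 3.14 and 2.29 FPKM in WT livers. Its knockout and WT values overlapped (log2 difference 0.12 ± 0.13, adjusted p = 0.524). Cox11, which delivers copper to subunit 1, had 5.26, 6.56 and 5.9 FPKM in knockout livers with betaine and 3.48, 4.8 and 4.15 FPKM in knockout livers, against 3.93, 3.95 and 2.88 FPKM in WT livers. These knockout and WT values overlapped as well (0.19 ± 0.16 log2, adjusted p = 0.408), and 48.3% of its exon bases lie under Tom1l1. The copper chaperone Cox17 reached at most 0.574 FPKM and Cox20, 91.1% of whose exon bases lie under Hnrnpu, at most 0.76 FPKM.

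In complex V the head of the enzyme did not pass while its stalks, ring and membrane subunits rose. The catalytic beta subunit Atp5b (chr10:128083273-128090391) had 255, 289 and 291 FPKM in knockout livers with betaine and 251, 205 and 216 FPKM in knockout livers, against 276, 245 and 224 FPKM in WT livers. Knockout and WT values overlapped (log2 difference -0.15 ± 0.14, adjusted p = 0.452). Its partner, the alpha subunit Atp5a1, ranged from 296 to 354 FPKM in knockout livers and from 243 to 323 FPKM in WT livers, also overlapping (0.16 ± 0.15 log2, adjusted p = 0.433).

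The 3 subunits of the central stalk, which turns inside the head, rose: Atp5e (epsilon) by 1.17 ± 0.24, Atp5d (delta) by 0.68 ± 0.21 and Atp5c1 (gamma) by 0.67 ± 0.16 log2. Atp5d did not pass without WT replicate 3 (adjusted p = 0.0847). Atp5e had 134, 68.3 and 95.1 FPKM in knockout livers with betaine and 152, 190 and 140 FPKM in knockout livers, against 80, 75.8 and 57.6 FPKM in WT livers. The lowest knockout library exceeded the highest WT library (adjusted p = 0.0117).

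The c ring, the rotor through which protons pass, is made from 3 genes that encode the same mature protein, and all 3 rose. Atp5g1 (chr11:96068852-96075670) had 41.9, 25.2 and 31.2 FPKM in knockout livers with betaine and 48.9, 47.9 and 42.9 FPKM in knockout livers, against 22.8, 22.1 and 17.1 FPKM in WT livers. Its knockout values were all at least 42.9 FPKM and its WT values at most 22.8 FPKM (1.16 ± 0.19 log2, adjusted p = 0.00655, the smallest among the members). Atp5g3, the most abundant of the 3 per length, had 230, 170 and 200 FPKM in knockout livers with betaine and 241, 246 and 224 FPKM in knockout livers, against 155, 157 and 113 FPKM in WT livers. Knockout stood above WT throughout (0.76 ± 0.17 log2, adjusted p = 0.0145). Atp5g2 had 63.6, 48.8 and 54.4 FPKM in knockout livers with betaine and 67, 79.9 and 68.6 FPKM in knockout livers, against 54.5, 51.9 and 41 FPKM in WT livers. The groups were again separate (0.55 ± 0.16 log2, adjusted p = 0.0324; 0.0681 without WT replicate 3).

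All 4 subunits of the peripheral stalk, which holds the head still, rose, with a median log2 difference of 1.03. Atp5j (coupling factor 6, chr16:84827866-84835625) had 67.7, 43.9 and 54.9 FPKM in knockout livers with betaine and 86.1, 89.5 and 72.2 FPKM in knockout livers, against 41.9, 44.4 and 33.8 FPKM in WT livers. Knockout and WT were apart by 1.04 ± 0.18 log2 (adjusted p = 0.00738). Atp5o, the protein that ties the stalk to the head (chr16:91925214-91931687), had 55.2, 35.7 and 45.8 FPKM in knockout livers with betaine and 63.3, 72 and 58.5 FPKM in knockout livers, against 36.5, 33.5 and 25.7 FPKM in WT livers. It rose by 1.02 ± 0.19 log2 without overlap (adjusted p = 0.00862), although 47.9% of its exon bases are shared with other gene models. Atp5h and Atp5f1, the d and b subunits, rose by 1.10 and 0.40 log2. Atp5f1 did not pass without WT replicate 3 (adjusted p = 0.086).

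The 4 membrane subunits at the base also rose, by 0.80 to 1.08 log2. Atp5j2 (subunit f) had 70.7, 43.7 and 57.9 FPKM in knockout livers with betaine and 88.4, 88.9 and 73.4 FPKM in knockout livers, against 47.6, 41.7 and 30.1 FPKM in WT livers. Its knockout and WT libraries were separate (1.08 ± 0.22 log2, adjusted p = 0.0101). The others were Atp5k and Atp5l, the e and g subunits that help ATP synthase form dimers, and Atp5mpl. Atp5k did not pass without WT replicate 3 (adjusted p = 0.0837). Atp5s, a coupling factor outside the core enzyme, had 2.61 to 3.33 FPKM in knockout livers and 1.93 to 2.52 FPKM in WT livers, without overlap and without passing (0.36 ± 0.14 log2, adjusted p = 0.0822).

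**Figure D2:**
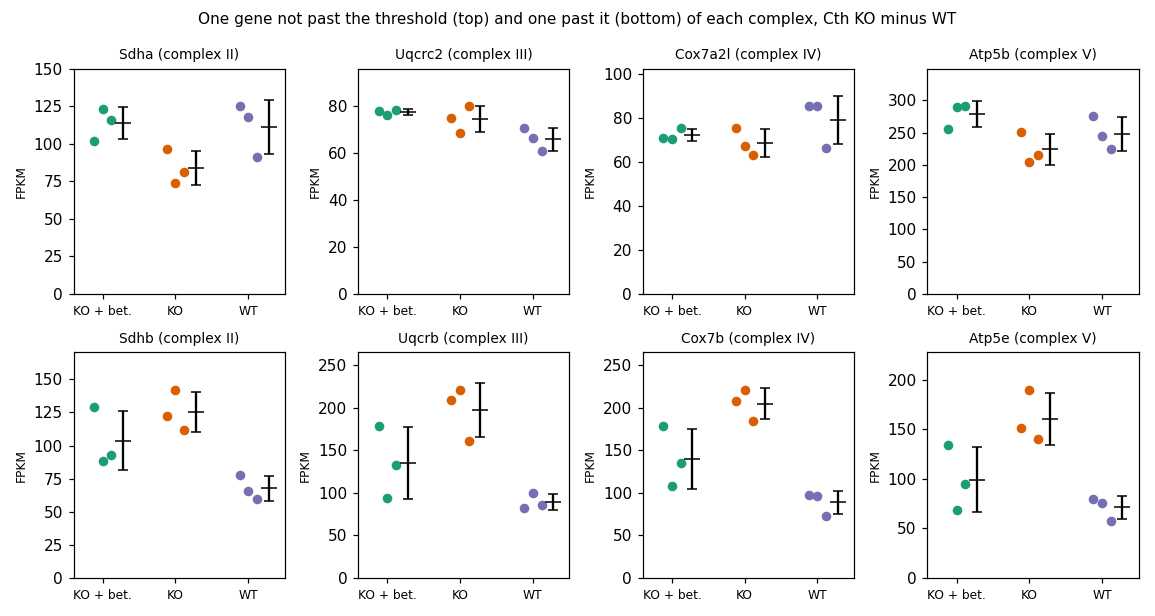
FPKM (y axis) of 1 gene that did not pass (top) and 1 that passed (bottom) between knockout and WT for each complex, in knockout livers with betaine, knockout livers and WT livers (x axis); points are libraries, and bars are mean ± SD of 3. In the bottom row each knockout library stands above each WT library, as for Cox7b with at least 185 FPKM against at most 97.7 FPKM.

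Within-library ratios carry no library scaling, and 1 ratio per complex was formed from pairs chosen after the values were seen. They keep the length trend described below, since each pair sets a shorter gene over a longer one. Sdhb has 2239 exon bases and Sdha 4126. With that trend removed, the log2 differences of knockout to WT were 0.65 for Sdhb and -0.37 for Sdha. They were 0.66 and -0.00 for Uqcrb and Uqcrc2, 0.77 and -0.59 for Cox7b and Cox7a2l, and 0.84 and -0.11 for Atp5e and Atp5b. The ratio of Sdhb to Sdha was 1.26, 0.717 and 0.806 in knockout livers with betaine and 1.27, 1.92 and 1.38 in knockout livers, against 0.622, 0.556 and 0.651 in WT livers. The ratio of Atp5e to Atp5b was 0.524, 0.237 and 0.327 in knockout livers with betaine and 0.608, 0.924 and 0.648 in knockout livers, against 0.29, 0.309 and 0.257 in WT livers. The ratio of Cox7b to Cox7a2l was 2.53, 1.53 and 1.8 in knockout livers with betaine and 2.76, 3.29 and 2.93 in knockout livers, against 1.15, 1.13 and 1.09 in WT livers. In all 3, and in the ratio of Uqcrb to Uqcrc2, every knockout library was above every WT library, by 1.30, 1.33, 1.41 and 0.96 log2. Since each pair sets a called member over one that was not called, the ratios are a description and no p-value is given for them.

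Fold change and transcript length went together in these libraries. Over all tested genes, Spearman's correlation across genes between union exon length and the log2 difference of knockout to WT was -0.46, and over the 56 members it was -0.35. Genes share libraries, so this is a description. The median exon length was 1675 bases for the 41 called members, 3037 bases for the 15 others and 3798 bases for all tested genes. Tested genes were divided by length into 3 equal classes. In the shortest (up to 2677 bases) 30 of 37 members were higher, or 81.1%, beside 24.1% of all its genes. In the middle class (up to 5244 bases) 10 of 16 members were higher, or 62.5%, beside 10.6%, and in the longest 1 of 3 (Atp5l), beside 3.85%.

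When the length trend was removed from each library, 21 members were higher and 2 lower (Sdhd and Cox7a2l), beside 8.99% and 9.54% of all genes, and the median log2 difference was 0.44. All 21 were among the 41. By complex, 9 of 17 in complex V, 7 of 19 in complex IV, 3 of 12 in complex III and 2 of 8 in complex II were higher. Those 21 were Sdhb and Sdhc, then Uqcrc1, Uqcrb and Uqcrq, then Cox16, Cox19, Cox5b, Cox6b1, Cox6c, Cox7b and Cox7c. In complex V they were Atp5e, Atp5g1, Atp5g3, Atp5j2, Atp5l, Atp5f1, Atp5h, Atp5j and Atp5o. Atp5g1 had the largest difference of these, 1.26 (adjusted p = 0.00790), and Sdhaf4 no longer passed (0.33, adjusted p = 0.143).

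**Figure D3:**
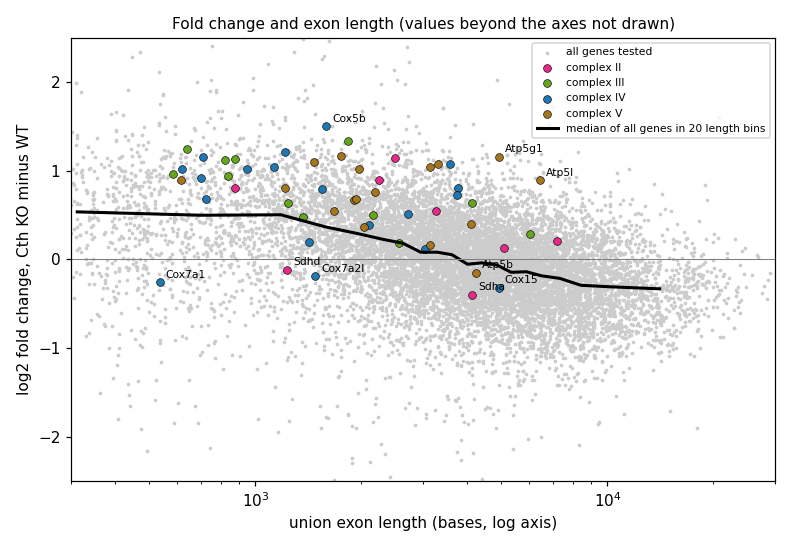
Union exon length in bases (x axis, log scale) and log2 fold change of knockout minus WT (y axis) for all tested genes (grey) and the members (colored by complex); the black line is the median of all genes in 20 length bins. The line falls with length, and most members lie above it, while some lie below, among them Cox7a1, Cox7a2l, Sdhd and Sdha.

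The members' levels were also followed library by library. Their mean log2 deviation from the 9-library average was 0.25, -0.18 and 0.05 in knockout livers with betaine and 0.35, 0.40 and 0.20 in knockout livers, against -0.20, -0.21 and -0.66 in WT livers. WT replicate 3 was lowest of all 9 libraries for 48 of the 56 members, and knockout replicate 2 was highest for 28. The difference between short and long genes in the same libraries was 0.21, -0.19 and 0.03 log2 in knockout livers with betaine and 0.29, 0.38 and 0.24 in knockout livers, against -0.30, -0.20 and -0.42 in WT livers. The order of the libraries was thus similar for both measures. With the length trend removed the members' mean was 0.16, -0.09 and 0.03 in knockout livers with betaine and 0.22, 0.24 and 0.11 in knockout livers, against -0.10, -0.14 and -0.45 in WT livers, with no overlap of knockout and WT. As a share of each library's recovered reads, which does not depend on the scaling of FPKM, the members held 1.2%, 1.07% and 1.08% in knockout livers with betaine and 1.17%, 1.2% and 1.12% in knockout livers, against 0.909%, 0.906% and 0.698% in WT livers.

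**Figure D4:**
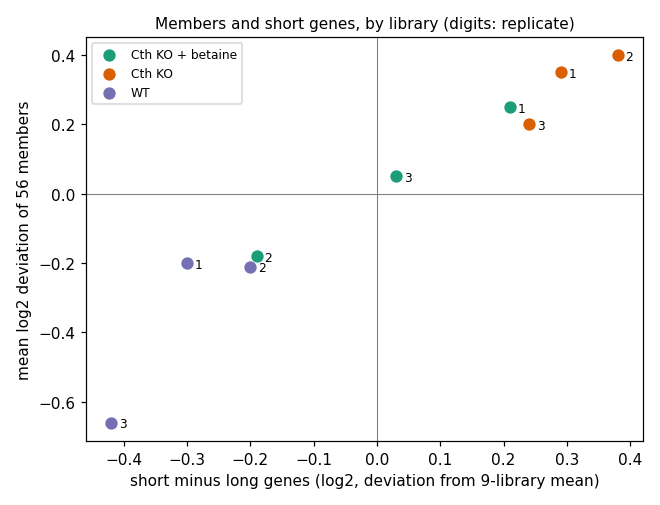
Each point is 1 of 9 libraries, with the difference between short and long genes (x axis, log2, relative to the 9-library mean) and the mean log2 deviation of the 56 members (y axis). The 3 knockout libraries lie at the upper right (0.20 to 0.40 on the y axis), WT replicate 3 at the lower left (-0.66), and the libraries with betaine run from -0.18 to 0.25, with betaine replicate 1 within the knockout range.

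Without WT replicate 3, 26 members were higher in the knockout and 1, Sdha, was lower, beside 21.6% of all genes called in either direction, and the median log2 difference was 0.59. The 26 comprised 10 of complex V, 8 of complex IV, 6 of complex III and 2 of complex II. With both that library and the length trend taken out, 18 were higher and 3 lower (Sdha, Sdhd and Cox7a2l), beside 7.27% and 8.48%, with a median of 0.33. The count was 21 without knockout replicate 1, 8 without knockout replicate 2 and 24 without knockout replicate 3, with medians of 0.74, 0.73 and 0.78. Calls over all genes fell in the same fits, to 16.4%, 7.58% and 14.4%. Sdhaf4, Cox16, Cox5b, Cox7b, Atp5g1, Atp5j2, Atp5j and Atp5o passed in each of the 9 fits that left out 1 library.

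**Figure D5:**
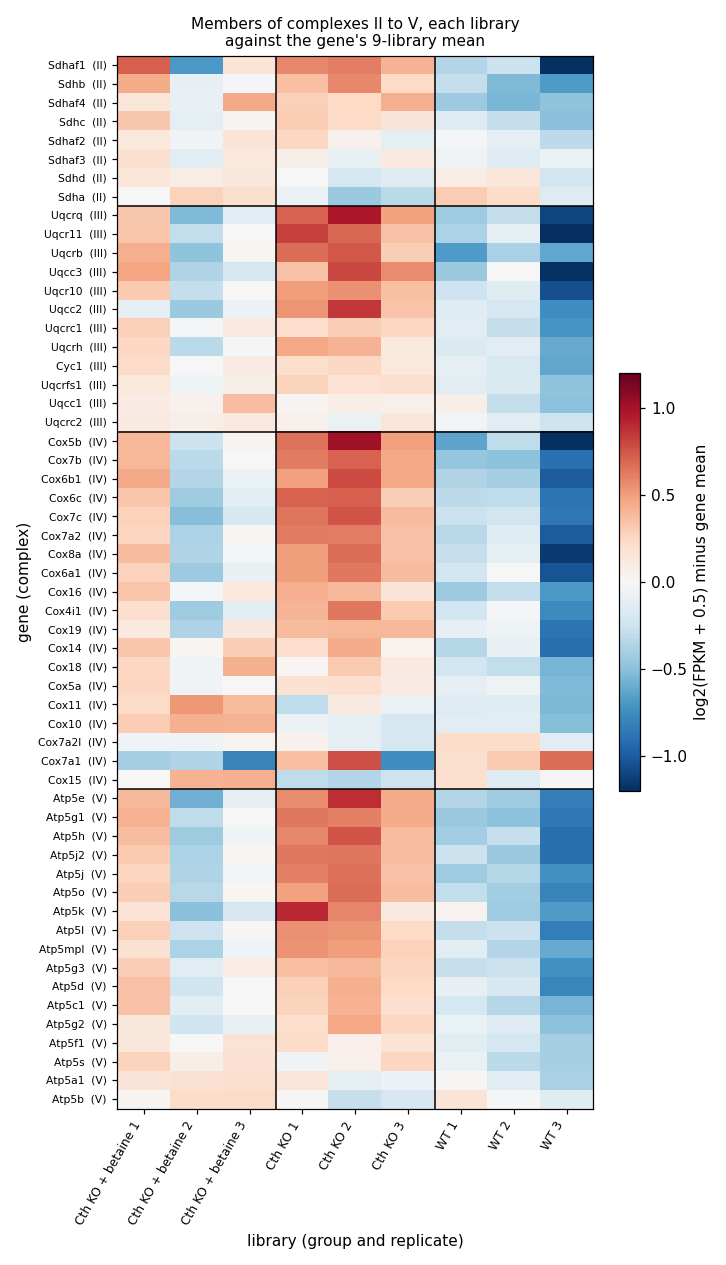
Rows are the 56 tested members by complex, columns the 9 libraries (knockout with betaine, knockout, WT), and color is log2(FPKM + 0.5) minus the gene's mean over the 9 libraries (red above, blue below). Knockout libraries are red for most rows, WT replicate 3 is the bluest column with a mean deviation of -0.66, and Sdha, Sdhd, Cox15, Cox7a2l and Atp5b run against the rest.

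The comparison of knockout livers with betaine to knockout livers asks whether the supplement changes these transcripts. No member passed in limma, beside 0.0422% of all tested genes called (5 genes, 2 higher and 3 lower). At an unadjusted p under 0.05 there were 19 members lower and 4 higher, beside 1299 lower and 1373 higher of the 11852 genes tested. The median log2 difference was -0.37 over the members and -0.00 over all genes, and 42 of 56 members were below 0. In 21 members, or 37.5%, all 3 libraries with betaine were below all 3 knockout libraries, which held for 14.7% of all genes, and in 7, or 12.5%, all were above, which held for 15.6%. On the TPM scale the median was -0.00 while that of all genes was 0.33, so the members stood 0.33 below all genes rather than 0.37.

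By role, the median log2 difference was -0.58 for the 5 small subunits of complex III, -0.57 for the 10 liver-form subunits of complex IV, -0.55 for the 4 of the peripheral stalk and -0.54 for the 4 membrane subunits of complex V. It was 0.06 for the 7 assembly factors of complex IV and 0.25 for the pair of head subunits of complex V. Uqcc2, whose values are given above, had the smallest adjusted p among the members, 0.0961, at -0.78 ± 0.20 log2, with all libraries with betaine below all knockout libraries. Next among the lower members was Atp5j at -0.58 ± 0.18 log2 (adjusted p = 0.127), and the lowest fold change was that of Uqcrq, -0.83 ± 0.27 log2 (adjusted p = 0.134). By complex the median log2 difference was -0.51 in IV, -0.42 in V, -0.41 in III and -0.07 in II, and on the TPM scale -0.14, -0.06, -0.05 and 0.28. The 7 with all libraries with betaine above the knockout were Sdha, Sdhd, Cox10, Cox11, Cox15, Atp5a1 and Atp5b. Cox15 was at 0.58 ± 0.15 log2 (adjusted p = 0.0965) and Cox10 at 0.51 ± 0.13 log2 (adjusted p = 0.0990). Sdha was at 0.44 ± 0.16 and Atp5b at 0.32 ± 0.14 log2 (adjusted p = 0.165 and 0.223).

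The libraries with betaine differed among themselves. Betaine replicate 1 was the highest of its group in 40 of 56 members and betaine replicate 2 the lowest in 49. Without betaine replicate 1, 5 members were lower (Cox7b, Cox7c, Atp5e, Atp5g1 and Atp5j) and 1 was higher (Cox15), beside 3.40% and 4.02% of all genes. Without WT replicate 3, which enters only through the shared spread, Uqcc2 was lower and Cox10 higher, beside 1.22% and 1.09% of all genes. On the TPM scale 8 members were higher: Sdha, Sdhd, Cox10, Cox11, Cox15, Cox7a2l, Atp5a1 and Atp5b, beside 14.2% of all genes called higher and 0.616% called lower. The correlation of this log2 difference with exon length was 0.49 over the members and 0.29 over all genes, given as a description, and with the length trend removed no member passed, beside 0.0422% of all genes called higher and 0.00844% called lower, and the median was -0.19.

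Against WT, 5 of 56 members rose in knockout livers with betaine and none fell, beside 11.7% of all genes called, 5.87% higher and 5.78% lower. They were Cox10 (0.63 ± 0.13 log2, adjusted p = 0.0213), Sdhaf4 (0.66 ± 0.15, 0.0235), Cox11 (0.66 ± 0.16, 0.0335), Cox16 (0.62 ± 0.15, 0.0344) and Cox18 (0.58 ± 0.16, 0.0461). All 5 are assembly factors, and the values of the first 4 are given above. The 5 are 8.93% of the members, near the 5.87% of all genes called higher. Which members passed depended on the scaling. With quantile normalization the subunits Cox7b, Atp5g1 and Atp5g3 passed too. On the TPM scale these subunits and also Sdhb, Uqcrc1, Cox5b and Atp5o passed, while Cox11 did not. Cox18 had 5.52, 4.44 and 6.34 FPKM in knockout livers with betaine and 4.67, 5.8 and 5.01 FPKM in knockout livers, against 3.82, 3.64 and 2.94 FPKM in WT livers. The lowest library with betaine was above the highest WT library in each of the 5. Sdhaf4, Cox16 and Cox18 also rose in the knockout without betaine, whereas Cox10 and Cox11 were not called there. These comparisons share the WT libraries.

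Over all 56 members the median log2 difference to WT was 0.44, and 54 members were above 0, of which 26 had an unadjusted p under 0.05. Of the 11852 genes tested 5990 were above 0, of which 1839 had an unadjusted p under 0.05. In 23 members all libraries with betaine were above all WT libraries, which held for 16.1% of all genes, and in 1, Cox7a1, all were below, which held for 16.2%. Atp5g1, Sdhb and Cox7b, which all rose in the knockout, had log2 differences to WT of 0.63 (adjusted p = 0.0616), 0.60 (0.0613) and 0.64 (0.0678) with betaine. Without WT replicate 3 2 members, Sdhaf4 and Cox10, passed, beside 5.58% of all genes called higher, and the median was 0.25. With the length trend removed Cox10 and Cox16 passed, beside 5.10%, and on the TPM scale 12 members, beside 4.89%. Without betaine replicate 3 no member passed, beside 2.92% of all genes called in either direction. Without WT replicate 1 or betaine replicate 1 only Cox10 passed, beside 4.87% and 5.31%.

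Transcripts of other proteins that work with these complexes were counted next. Of 27 tested assembly factors and partners outside the naming rule, 15 were higher and 2 lower in knockout than in WT livers, beside 12.8% and 12.7% of all genes, with a median log2 difference of 0.55. Cycs, cytochrome c, which carries electrons between complexes III and IV, had 36.3, 31 and 38.7 FPKM in knockout livers with betaine and 46.9, 45.6 and 42.5 FPKM in knockout livers, against 20.2, 19.2 and 17.7 FPKM in WT livers. The 3 groups did not overlap at all, with a log2 difference of knockout to WT of 1.22 ± 0.12 (adjusted p = 0.00447) and of knockout with betaine to WT of 0.87 ± 0.12 (adjusted p = 0.00699). Coa6, a copper-handling factor of complex IV, rose by 1.02 ± 0.15 log2 in the knockout and by 1.04 ± 0.15 with betaine, against WT in both cases (adjusted p = 0.00567 and 0.00682). Tmem242, an assembly factor of complex V, rose by 0.91 ± 0.12 and 0.69 ± 0.12 log2 (adjusted p = 0.00546 and 0.0105).

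Of 6 tested mitochondrially encoded subunits 3 rose in the knockout and 0 fell, beside 12.8% and 12.7% of all genes, with a median log2 difference of 1.00 over the 6. mt-Co1, the catalytic subunit of complex IV, had 20046, 12222 and 13941 FPKM in knockout livers with betaine and 23018, 27605 and 25352 FPKM in knockout livers, against 12294, 14485 and 11136 FPKM in WT livers. All knockout libraries were above the WT libraries (1.01 ± 0.22 log2, adjusted p = 0.0127). mt-Cytb, the cytochrome b of complex III, rose by 1.00 ± 0.23 log2 (adjusted p = 0.0155), or by 0.54 with the length trend removed, which did not pass (adjusted p = 0.0533). mt-Co3 rose by 1.68 ± 0.36 log2 in the knockout (adjusted p = 0.0135) and by 1.85 ± 0.36 with betaine (adjusted p = 0.0174), each against WT. Its level was only 43.6 to 357 FPKM over the 9 libraries, beside 11136 to 27605 FPKM for mt-Co1. Libraries were made from poly-A-selected RNA, which captures mitochondrial transcripts in part.

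Of 16 tested regulators of mitochondrial genes, 0 were higher and 2 lower in knockout than in WT livers, beside 12.8% and 12.7% of all genes, with a median log2 difference of -0.28. The count of lower regulators is near that background. Gabpa, the DNA-binding part of the ETS factor GABP, had 4.64, 6.59 and 5.77 FPKM in knockout livers with betaine and 4.8, 3.74 and 4.68 FPKM in knockout livers, against 8.41, 7.5 and 8.3 FPKM in WT livers. The knockout values were all below WT (-0.81 ± 0.15 log2, adjusted p = 0.00843), and Gabpa shares exon bases with Atp5j, whose level rose. Polg, the mitochondrial DNA polymerase, fell by 0.73 ± 0.16 on the log2 scale (adjusted p = 0.0131). With the length trend removed Polg was at -0.42 and did not pass (adjusted p = 0.0594), while Gabpa was at -0.67 and passed (adjusted p = 0.0153). With betaine against WT, Yy1 fell by 0.73 ± 0.16 (adjusted p = 0.0248) and Tfb1m, an rRNA methyltransferase of mitochondria, rose by 0.78 ± 0.21 (adjusted p = 0.0411). Tfb1m did not pass with the length trend removed (adjusted p = 0.0615) or on the TPM scale (adjusted p = 0.0882).

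Of 13 enzymes of the tricarboxylic acid cycle, which feeds succinate to complex II, 5 were higher and 1 lower in knockout than in WT livers, with a median log2 difference of 0.27. The share of all genes was 12.8% higher and 12.7% lower, here and for the next 2 lists. Mdh2 rose by 0.74 ± 0.14, Idh3a by 0.50 ± 0.13 and Cs, citrate synthase, by 0.33 ± 0.10 log2 (adjusted p = 0.00861, 0.0262 and 0.0454). Sucla2, a subunit of succinyl-CoA synthetase, fell by 0.59 ± 0.16 (adjusted p = 0.0294). On the TPM scale Mdh2 was at 0.33, Idh3a at 0.11, Cs at -0.08 and Sucla2 at -1.01 log2. Idh3a and Cs did not pass on that scale (adjusted p = 0.654 and 0.659). Without WT replicate 3 Cs and Sucla2 did not pass (adjusted p = 0.0553 and 0.0515). With betaine 5 of the 13 were higher than in WT and 0 lower, beside 5.87% and 5.78% of all genes, among them Cs at 0.56 ± 0.10 log2 (adjusted p = 0.0134). Of 18 genes of electron transfer to ubiquinone and its synthesis, 9 were higher and 1 lower in the knockout. Coq7 and Coq4, of ubiquinone synthesis, rose by 1.08 ± 0.15 and 0.69 ± 0.12 log2 (adjusted p = 0.00567 and 0.00792). Coq4 did not pass on the TPM scale (0.41 log2, adjusted p = 0.0838). Etfb, a subunit of the electron transfer flavoprotein, rose by 1.49 ± 0.30 (adjusted p = 0.0109). Of 22 genes of mitochondrial import, chaperones and membrane, 9 were higher and 1 lower, among them Phb (prohibitin), the protease subunit Clpp and Chchd3 of the cristae junctions at 0.86 ± 0.14, 1.03 ± 0.20 and 0.71 ± 0.14 log2 (adjusted p = 0.00647, 0.0100 and 0.00891). With the length trend removed the counts of higher and lower genes were 8 and 1 for the outside assembly factors, 2 and 0 for the mitochondrially encoded subunits, and 0 and 2 for the regulators. They were 5 and 1 for the tricarboxylic acid cycle, 5 and 0 for the ubiquinone list and 9 and 1 for the import list, beside 8.99% and 9.54% of all genes. The 2 lower regulators then included Gabpa but not Polg. Between knockout livers with betaine and knockout livers no gene of any of these 6 lists was called by limma.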

How the data were processed

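Per the submitters' processing notes, the tools included DESeq2 1.16.1, featureCounts 1.5.0-p3 and HISAT2 2.0.5, with genome build mm10. The roles and settings of these tools and the strandedness of counting are not given in the sources used here, so overlapping genes cannot be told apart. Libraries were poly-A selected, per the labels' protocols. The deposited table holds FPKM per gene and library, made by the authors, and no raw counts. Exon lengths were unions of GENCODE M21 exons (GRCm38, the assembly of mm10). Dividing by what 1 read is worth turned 98.3% to 98.6% of values worth at most 20 reads into whole numbers (tolerance 0.05), and gave totals of 15184888 to 17473977 reads. The denominators that the same steps imply were 13513212 to 18527927 reads and sums of FPKM 373773 to 584197, so the values are not scaled to the recovered totals.

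Here, genes averaging 0.5 FPKM or more were tested as log2(FPKM + 0.5) in limma 3.58.1 (R 4.3.3; lmFit, eBayes with trend and robust, two-sided) in 1 fit over the 9 libraries, with Benjamini-Hochberg adjustment over all 11852 genes and a threshold of 0.05. Tables and figures used Python 3.11.15 (pandas 2.3.3, numpy 2.4.6, matplotlib 3.10.9). The length trend was removed by a lowess curve (span 0.3) of log2 deviation on log2 length in each library. The code was checked on simulated data. Members, gene lists and tests were chosen with earlier results of these data known. The genes given in full are, per complex, the 4 called members with the smallest p between knockout and WT, up to 3 called with betaine, the member with the lowest fold change, paired isoforms, and up to 3 called genes per pathway list, 1 of which is not reported here. Other genes named in the text were chosen after their values were seen.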

Additional observations from a re-analysis of the deposited data

How the results depend on the processing

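Calls between knockout and WT numbered 41 with all 9 libraries. They were 23 without the filter on low values, 23 with the length trend removed and 21 with that and without WT replicate 3. They were 8 to 41 when 1 library was left out. The shares of all genes then tested that were called were, in this order from the full fit, 25.6%, 7.34%, 18.5%, 15.7% and 7.58% to 27.3%. No pseudocount, filter or eBayes setting made a member lower. Between knockout with betaine and knockout the count was 0, but 8 on the TPM scale, and 0 to 6 with 1 library left out. The shares of all genes called there were 0.0422%, 14.8% and 0% to 7.42%. Between knockout with betaine and WT the count was 5 (11.7% of all genes), but 0 without the filter (2.09%) and 12 on the TPM scale (9.06%). It was 19 when scaled to recovered read totals (12.8%) and 8 with quantile normalization (12.7%). With the length trend removed it was 2 (9.72%), and 1 with that and without WT replicate 3 (11.6%). It was 0 with only the 2 groups in the fit (2.98%), and 0 to 7 with 1 library left out (2.92% to 12.1%). The cause of these moves was not tested.

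Replicate numbers did not pair the libraries: correlations of same-numbered deviations were -0.227 to 0.098. With a replicate block 32, 0 and 2 members were called in the order above, beside 18.6%, 0% and 5.66% of all genes. With the block and the length trend removed 20, 0 and 0 were called, beside 10.2%, 0% and 4.27%.

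Among 680 repeats of 31 named log2 values, 540 kept direction and side of the threshold, 126 lost and 8 gained the call, and 6 turned sign. Uqcrc2 between knockout and WT was -0.24 on the TPM scale, -0.14 with quantile normalization, -0.00 with the length trend removed, -0.02 with that and without WT replicate 3, and -0.00 with that and the block. Cox7a1 between knockout and WT ranged from -0.58 to 0.17 with 1 library left out, the highest without knockout replicate 3. Medians per complex moved by more than the spread in 31 of 264 repeats. Depth limits Cox17, Cox20 and the isoforms of other tissues, with at most 47 reads a library for Cox17 and 10 for Cox20.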
